A study of Rattus norvegicus with 10 samples.

Results

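Adgre1, C1qb, Cd53 and RT1-Da, genes used as markers of macrophages and related leukocytes, were followed in cultured rat pancreatic islets that had received a virus carrying Nkx6.1 or a control virus. They were represented by 4 probes, 1 per gene, of 26962 on the array besides controls, and were taken by the gene symbol of the platform annotation, in which Adgre1 still carries its older name Emr1. The 4 had been picked from a longer marker list because their difference between the same 2 groups had the smallest p-values there, so that difference is a description here and carries no test. Each group held 5 samples from independent isolations of islets of male Sprague-Dawley rats of about 250 g, pooled at about 200 islets per condition. The Nkx6.1 samples received an adenovirus with hamster Nkx6.1, a transcription factor of insulin-producing beta cells, and the bGAL samples one with beta-galactosidase, a bacterial enzyme. Both transgenes stood under the CMV promoter, which is not restricted to a cell type, so the labels do not tie the transgene to beta cells. Everything else was shared: 18 h with virus at 5e9 particles per ml, then 60 h without it, in medium with 8 mM glucose and 10% serum.

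Islets hold a small resident population of macrophages beside their hormone-secreting cells. Macrophages take up debris and microbes, make complement components, and present peptides to T cells on MHC class II molecules. Adgre1 encodes an adhesion receptor of the macrophage surface that is widely used to recognise these cells. C1qb encodes the B chain of C1q, the recognition molecule that starts the classical complement pathway. Cd53 encodes a tetraspanin, a membrane protein found on leukocytes in general. RT1-Da encodes an alpha chain of a rat MHC class II molecule, which displays peptides on antigen-presenting cells.

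The RefSeq promoter windows of the 4 genes (GRCr8, 250 bases before to 50 after the start site) are printed here because 2 kinds of element known from leukocyte and class II genes were looked for in them, and they are written 5′ to 3′ on the strand of the gene. Capitals mark GAGGAA or its reverse complement TTCCTC, a core read by the leukocyte factor PU.1, and ATTGG, the Y box core of class II promoters, read by NF-Y. They also mark TAGCAAC, part of the X box known from the human counterpart of RT1-Da, a motif added after the sequences had been seen. Both strands were searched. The windows lie at chr9:2329190-2329489 on the plus strand (Adgre1), chr5:154407778-154408077 on the minus strand (C1qb), chr2:197087847-197088146 on the minus strand (Cd53) and chr20:4515165-4515464 on the plus strand (RT1-Da).
Adgre1: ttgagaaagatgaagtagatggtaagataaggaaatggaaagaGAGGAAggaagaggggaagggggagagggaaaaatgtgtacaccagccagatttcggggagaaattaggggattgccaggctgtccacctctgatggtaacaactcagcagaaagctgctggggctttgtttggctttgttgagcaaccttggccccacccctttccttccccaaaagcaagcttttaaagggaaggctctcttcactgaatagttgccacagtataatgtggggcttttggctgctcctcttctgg
C1qb: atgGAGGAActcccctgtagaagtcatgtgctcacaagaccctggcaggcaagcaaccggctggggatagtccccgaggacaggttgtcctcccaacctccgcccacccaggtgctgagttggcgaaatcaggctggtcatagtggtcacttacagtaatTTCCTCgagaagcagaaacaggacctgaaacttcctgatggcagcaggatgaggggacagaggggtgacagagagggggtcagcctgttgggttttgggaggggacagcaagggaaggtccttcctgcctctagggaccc
Cd53: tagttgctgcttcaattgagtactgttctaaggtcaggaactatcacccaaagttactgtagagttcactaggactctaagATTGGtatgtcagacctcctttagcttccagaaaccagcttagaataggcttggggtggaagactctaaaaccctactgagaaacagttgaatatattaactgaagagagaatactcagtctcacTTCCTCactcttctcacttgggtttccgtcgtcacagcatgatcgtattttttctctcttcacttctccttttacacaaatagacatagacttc
RT1-Da: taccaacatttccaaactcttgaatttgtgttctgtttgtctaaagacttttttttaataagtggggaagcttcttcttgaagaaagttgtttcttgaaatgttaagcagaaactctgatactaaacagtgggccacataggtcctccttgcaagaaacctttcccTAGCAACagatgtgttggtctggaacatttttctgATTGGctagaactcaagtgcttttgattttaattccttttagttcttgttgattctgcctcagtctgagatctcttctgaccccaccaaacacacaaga

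The PU.1 core was present once in the Adgre1 window, in 2 copies in that of C1qb and once in that of Cd53, and the RT1-Da window held no match to it. Of 33469 rat promoter windows of the same length, 27.6% hold this core on either strand. RT1-Da instead carried the X box letters at −84 to −78 and the Y box core at −49 to −45 from the start site. The Y box core, found in 37.5% of all windows, also stood in the Cd53 window, at −169 to −165. The X box letters stood in 3.58% of all windows and, among the 4 genes, in that of RT1-Da. No match overlapped another, and a match of letters does not show that a factor is bound in these cells.

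Each value below is a log2 ratio of islet RNA to a common rat reference RNA, centred on the probe's own median over the 10 samples. A value of 0 is therefore the middle sample of that probe, and levels cannot be compared between genes or read as presence. The direction, islet over reference, is likely but is not stated in the sources used here, and all signs rest on it. The arrays fell into 2 sets. Array set 1 (bGAL replicates 1, 2, 3 and 5 and Nkx6.1 replicate 1) lacked a value for 27.3% to 32.5% of the probes, and array set 2 (bGAL replicate 4 and Nkx6.1 replicates 2 to 5) for 0.816% to 9.13%. Array set and virus are thus largely aligned. Nkx6.1 replicate 2 had an interquartile range of 1.09 over all probes, against 0.35 to 0.58 in the other 9 samples. The rat Nkx6-1 probe differed by −0.56 (Nkx6.1 minus bGAL), and since the virus carried the hamster gene it does not check the labels. In bulk islet RNA, fewer macrophages and less marker RNA per macrophage cannot be told apart. With array set and virus largely aligned, neither can be fully told from a difference of array set.

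In all 4 genes the mean was lower with the Nkx6.1 virus, with log2 differences between −2.78 and −0.83, and in all 4 the samples of the groups overlapped. None was past an adjusted p of 0.05 in a fit over all genes with limma (0 of 4, where 0.15% of the 9973 genes tested passed in either direction and 0.0401% passed as lower). In 0 of 4 did all Nkx6.1 samples lie below all controls, as they did in 1.92% of all genes. Nothing is read from these counts, because the same contrast had chosen the genes.

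**Figure D1:**
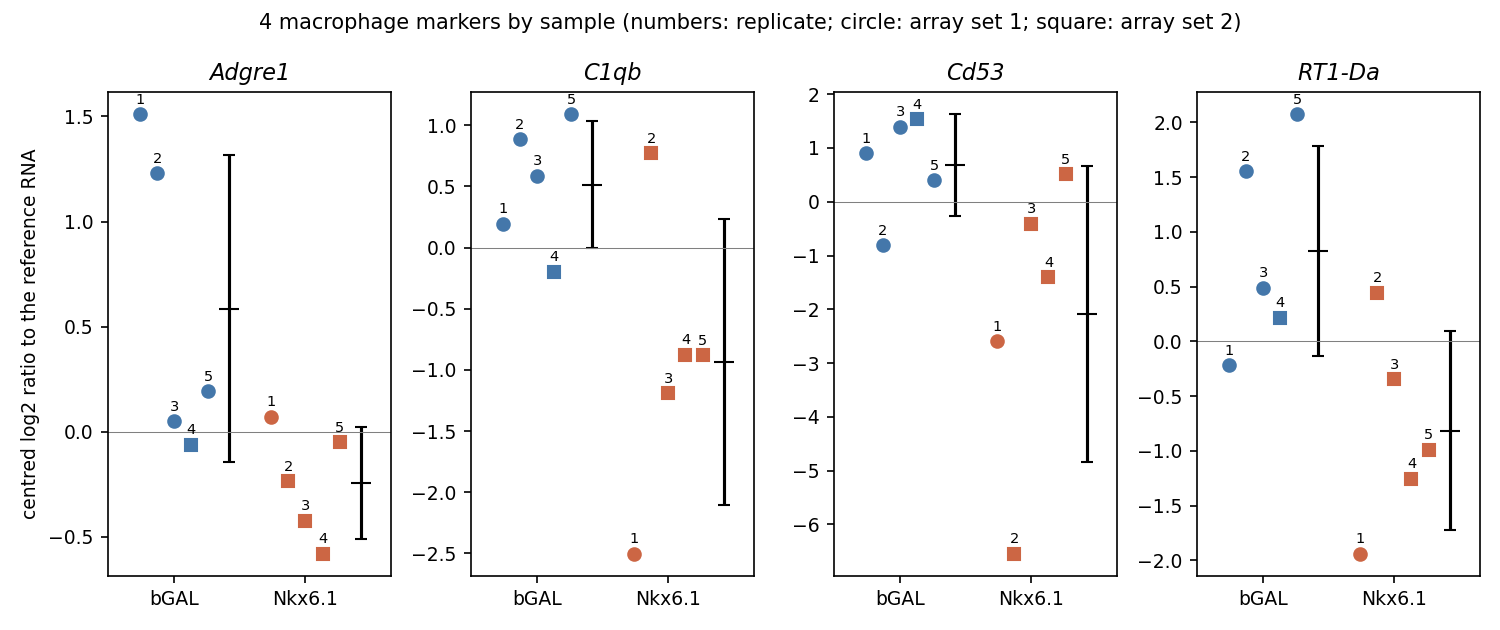
Centred log2 ratio of the 4 genes in each sample (y axis, one scale per gene), with the replicate number beside each point, circles for array set 1 and squares for array set 2. Black marks give the group mean and SD (n = 5). In each gene the lower values are mostly Nkx6.1 samples. C1qb and RT1-Da share the highest sample, bGAL replicate 5, and the lowest, Nkx6.1 replicate 1, while other samples stand highest and lowest in Adgre1 and Cd53.

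Of the 2 genes that act in antigen handling and complement, RT1-Da stood at −0.22, 1.56, 0.49, 0.22 and 2.08 in bGAL replicates 1 to 5. In Nkx6.1 replicates 1 to 5 it stood at −1.94, 0.45, −0.35, −1.25 and −0.99. The control samples with the highest RT1-Da were replicates 5 and 2, and the only Nkx6.1 sample inside the control range was replicate 2. The group means were 0.82 ± 0.96 and −0.82 ± 0.91 (SD, n = 5), a difference of −1.64, or 3.12-fold lower with the Nkx6.1 virus.

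C1qb stood at 0.20, 0.89, 0.59, −0.20 and 1.09 in bGAL replicates 1 to 5. In Nkx6.1 replicates 1 to 5 its values were −2.50, 0.77, −1.19, −0.87 and −0.88. As for RT1-Da, 4 of 5 Nkx6.1 samples lay below all controls, replicate 2 lay inside their range and replicate 1 was lowest. The means of 0.51 ± 0.52 and −0.94 ± 1.17 (SD, n = 5) differed by −1.45, a 2.73-fold lower value.

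Adgre1, the macrophage receptor, had values of 1.51, 1.23, 0.05, −0.06 and 0.19 in bGAL replicates 1 to 5. With the Nkx6.1 virus it had 0.07, −0.23, −0.42, −0.58 and −0.05. The 2 highest values were those of control replicates 1 and 2, while the other 3 controls lay between −0.06 and 0.19, close to the highest Nkx6.1 sample at 0.07. All arrays of set 1 stood at 0.05 or above in this gene and all arrays of set 2 at −0.05 or below. Array set thus split its values completely, and the virus groups did not. The means were 0.58 ± 0.73 and −0.24 ± 0.27 (SD, n = 5), a difference of −0.83 or 1.77-fold, and the difference of the group medians was −0.43.

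Cd53, the leukocyte tetraspanin, stood at 0.91, −0.80, 1.39, 1.54 and 0.41 in bGAL replicates 1 to 5 and at −2.60, −6.55, −0.41, −1.40 and 0.52 in Nkx6.1 replicates 1 to 5. A single sample, Nkx6.1 replicate 2, lay far below the rest, and Nkx6.1 replicate 5 lay above 2 of the controls. The means of 0.69 ± 0.94 and −2.09 ± 2.75 (SD, n = 5) differed by −2.78, or 6.85-fold. The spread within groups was large for this gene, with a pooled SD of 2.06 that exceeded the SD of 94.1% of the genes with 10 values. For Adgre1 the pooled SD was 0.55, near the median of 0.56 over these genes.

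The sample leading a difference was taken as the one whose removal brought it nearest to 0 or past it. Leaving out bGAL replicate 1 brought the difference of Adgre1 to −0.60, Nkx6.1 replicate 1 that of C1qb to −1.06, Nkx6.1 replicate 2 that of Cd53 to −1.66 and bGAL replicate 5 that of RT1-Da to −1.33. The lead was narrow for RT1-Da, which differed by −1.36 without Nkx6.1 replicate 1, the leading sample of C1qb. The control sample bGAL replicate 3 led none of the 4. Without it the differences were −0.96 for Adgre1, −1.43 for C1qb, −2.60 for Cd53 and −1.72 for RT1-Da. Among the other leukocyte markers tested, that sample led 2, the macrophage receptor genes Cd163 and Trem2. Cd163, the haemoglobin scavenger receptor gene, stood at 15.5 there and between −1.17 and 1.25 in the other controls. Its difference of −3.20 became −0.13 without that sample, and that of Trem2 went from −0.03 to 0.64.

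Within array set 2, where 1 control met 4 Nkx6.1 samples, the differences were −0.26 for Adgre1, −0.35 for C1qb, −3.50 for Cd53 and −0.75 for RT1-Da. Within array set 1, where 4 controls met 1 Nkx6.1 sample, they were −0.67, −3.19, −3.07 and −2.91 in the same order. The sign was negative in both sets for all 4 genes. For C1qb and RT1-Da, however, the value in array set 1 rests on Nkx6.1 replicate 1 alone, the lowest sample of both genes. With array set as a term in the fit the differences were −0.47 for Adgre1, −1.77 for C1qb, −3.28 for Cd53 and −1.83 for RT1-Da. Their standard errors were 0.39, 0.68, 1.54 and 0.71 in the same order. Each of these differences equals the plain mean of the 2 within-set values of its gene. It thus leans on Nkx6.1 replicate 1 and bGAL replicate 4, each the only sample of its group in an array set.

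**Figure D2:**
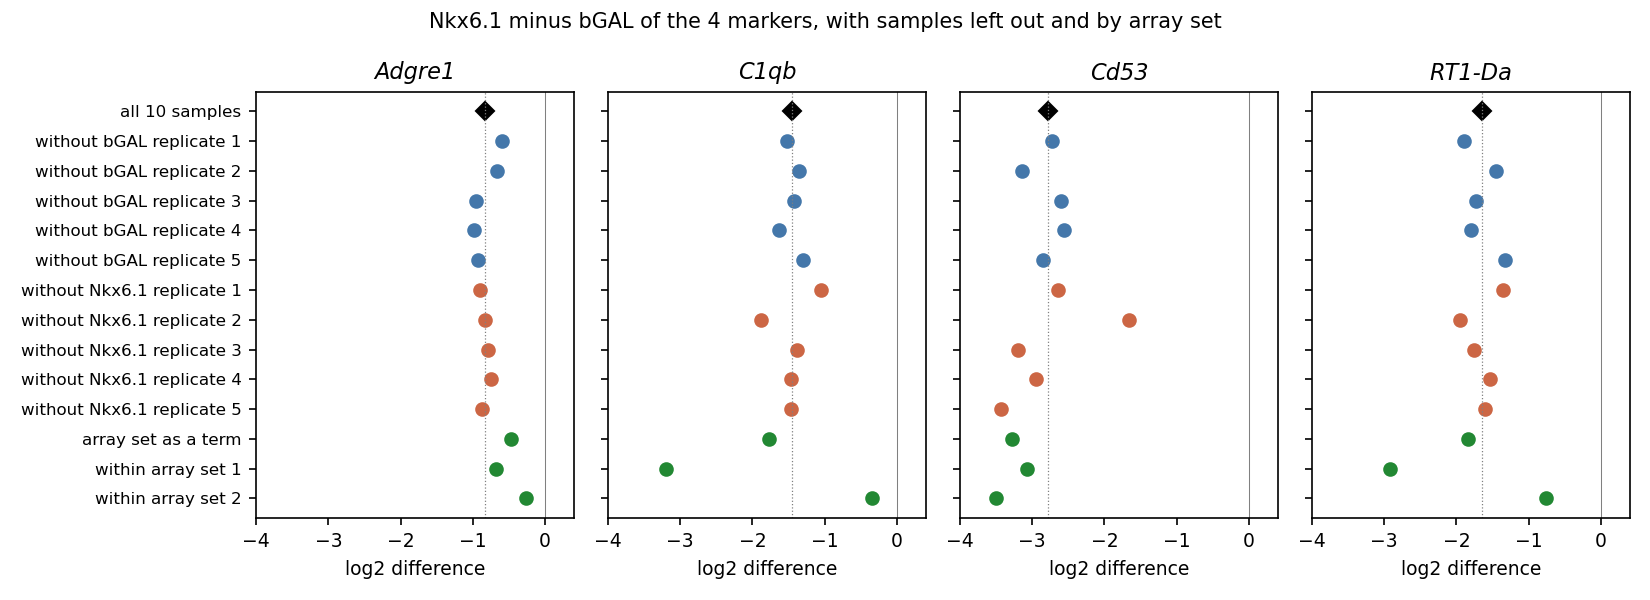
Log2 difference, Nkx6.1 minus bGAL (x axis), of each gene with all 10 samples (diamond and dotted line), with each sample left out (blue for controls, orange for Nkx6.1) and by array set (green). Cd53 moves most without Nkx6.1 replicate 2, and C1qb and RT1-Da differ between the array sets.

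Whether the genes vary together was examined on the deviations of each sample from its group mean. The p-values by which the genes were chosen rest on each gene's own spread within groups, so these deviations are not wholly separate from the choice. The deviations of RT1-Da and C1qb had Pearson's r = 0.81 (exact two-sided permutation within groups, p = 0.0064, adjusted p = 0.032 over 10 pairs) and Spearman's rho = 0.88 (exact permutation p = 0.0066, adjusted p = 0.066), so the rank measure missed the threshold after adjustment. Without the 2 samples farthest in C1qb, Nkx6.1 replicates 1 and 2, r was 0.72. In both genes Nkx6.1 replicate 2 stood highest and Nkx6.1 replicate 1 lowest of their group, and bGAL replicates 5 and 2 were the 2 highest controls. With array set also removed, r was 0.81. Each array set holds 5 samples, 4 of them from 1 group, which is too few for a correlation within a set, so none is given. The 4 controls of array set 1 stood in the same order in both genes, from replicate 5 through 2 and 3 to 1. The 4 Nkx6.1 samples of array set 2 shared the highest, replicate 2, and the others stood in reverse order. RT1-Da fell from replicate 3 through 5 to 4, and C1qb from 4 through 5 to 3, with 4 and 5 nearly equal. Genes outside the leukocyte lists reached higher r of deviations with either gene, such as 0.86 for Yju2b with RT1-Da and 0.95 for Fxyd6 with C1qb. How many of all genes do so was not counted, so the relation is not shown to be particular to this pair.

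The other 5 pairs of the 4 genes showed no such relation. Adgre1 had r = −0.18 with RT1-Da (exact permutation p = 0.64), −0.08 with C1qb (p = 0.77) and −0.20 with Cd53 (p = 0.40). Cd53 had r = −0.48 with RT1-Da (exact permutation p = 0.17) and −0.57 with C1qb (p = 0.25), both led by Nkx6.1 replicate 2, without which r was −0.06 and 0.22. Adjusted p over the 10 pairs was 0.346 or above for these 5, and their rho lay between −0.43 and −0.12 with exact permutation p of 0.20 or above. With 10 samples, these tests do not show that the genes vary independently.

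**Figure D3:**
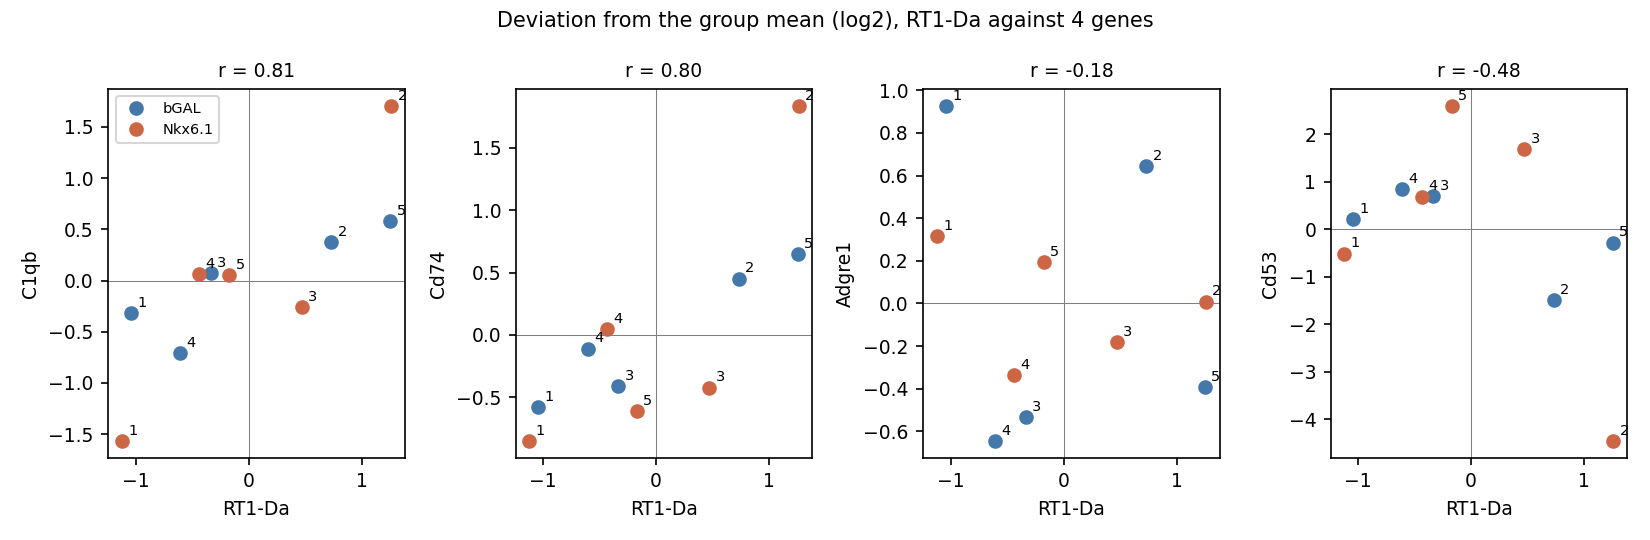
Deviation from the group mean on the log2 scale, with RT1-Da on each x axis and C1qb, Cd74, Adgre1 and Cd53 on the y axes, blue for bGAL and orange for Nkx6.1, with replicate numbers. Points rise together for C1qb and Cd74 (r = 0.81 and 0.80) and not for Adgre1 and Cd53 (r = −0.18 and −0.48).

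Partners of the same molecular machines gave a divided picture. Cd74 encodes the invariant chain that escorts class II molecules, and its deviations followed those of RT1-Da (r = 0.80, exact permutation p = 0.0053, adjusted p = 0.032, rho = 0.73, exact permutation p = 0.024, adjusted p = 0.081). Without the 2 farthest samples, Nkx6.1 replicate 2 and bGAL replicate 5, that r was 0.62. RT1-Db1, the beta chain that pairs with RT1-Da, had r = 0.74 (exact permutation p = 0.024, adjusted p = 0.080, and r = 0.68 without the same 2 samples) and rho = 0.77 (exact permutation p = 0.019, adjusted p = 0.081). RT1-Bb, a chain of another class II molecule, had r = 0.51 (exact permutation p = 0.15), which became −0.04 without those samples.

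RT1-Db1 was highest in bGAL replicates 5 and 2, at 1.99 and 1.76, the samples in which RT1-Da was also highest. The group means of RT1-Db1 were 0.79 ± 1.10 and −0.37 ± 0.48 (SD, n = 5), a difference of −1.15 that did not pass (limma adjusted p = 0.51). Cd74 had 1.14 and 0.95 in the same 2 controls and 1.60 in Nkx6.1 replicate 2, and differed by −0.73 (limma adjusted p = 0.59). Ciita, the activator that class II genes depend on, differed by 0.02 (limma adjusted p = 0.98), and 1 of its 2 probes was floored, with one and the same value in 3 or more samples. In Nkx6.1 replicate 2, where RT1-Da, C1qb and Cd74 were highest of their group, the hormone genes Ins1 and Gcg also stood at 3.14 and 2.06. The part of that sample's wider spread in these values was not tested.

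C1qa, the A chain of C1q, did not follow C1qb (r = −0.39, exact permutation p = 0.21, adjusted p = 0.35, and rho = −0.12). It stood at 5.13, 2.24 and 1.20 in bGAL replicates 1, 2 and 3 and at 2.67 in Nkx6.1 replicate 1, all arrays of set 1, and at 0.08 in bGAL replicate 5 of that set. In the 5 arrays of set 2 it lay between −0.65 and −0.08. The difference of C1qa was −1.62 (limma adjusted p = 0.57), −0.77 without bGAL replicate 1. The C chain gene C1qc had values in 5 samples only and was not tested.

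The 4 genes were then set beside 87 other markers of leukocytes, listed by role with earlier results known. Of these, 64 had a probe and 55 were tested. With the Nkx6.1 virus 32 of the 55 were lower and 23 higher, with a median log2 difference of −0.13. Over all 9973 genes tested, 54.5% were lower and the median was −0.05, against 58.2% lower in the list. No marker passed in either direction (limma, adjusted p of 0.05, 0 of 55), and at an unadjusted p under 0.05 there were 4 lower (Ctss, RT1-Db1, Cd37 and Mcpt1) and 1 higher (Cd48), where 5.10% of all genes were lower at that level. The median over the list ranged from −0.18 to 0.17 in the Nkx6.1 samples and from −0.12 to 0.12 in the controls.

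**Figure D4:**
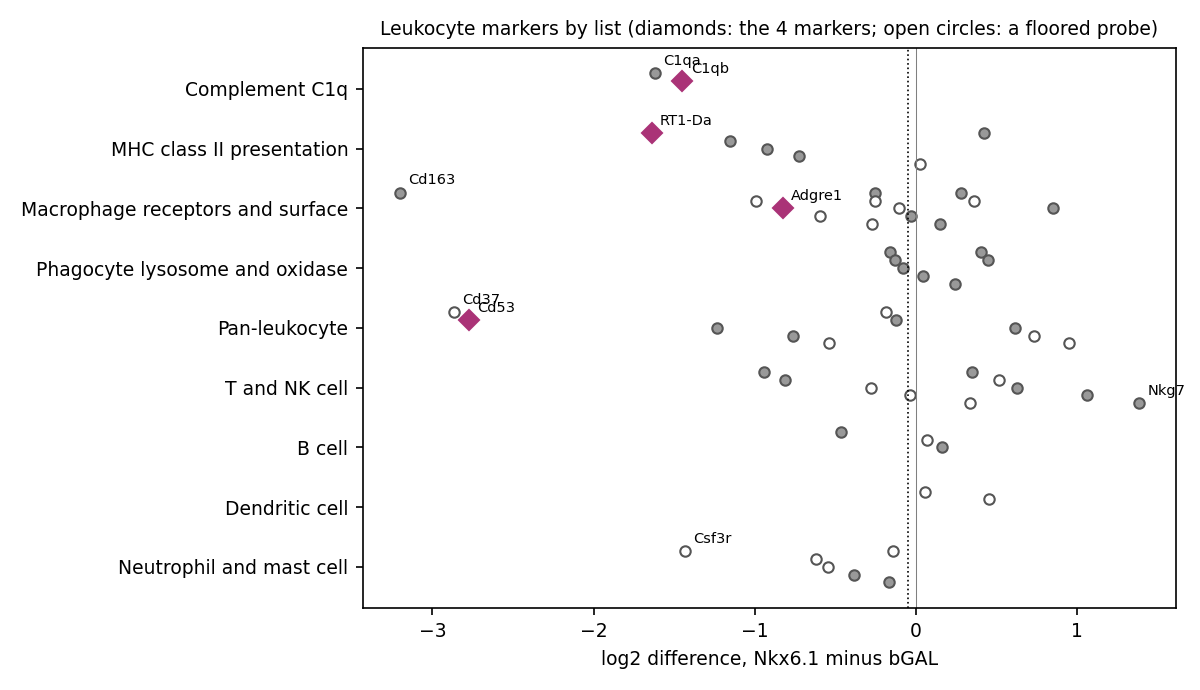
Log2 difference, Nkx6.1 minus bGAL (x axis), of each tested leukocyte marker by list (y axis). Diamonds are the 4 genes, open circles genes with a floored probe, and the dotted line is the median of all genes tested (−0.05). The other markers lie on both sides of 0, 32 lower and 23 higher.

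Markers that define macrophages stood on both sides. When each of the other leukocyte markers was taken without the 1 sample whose removal brought its difference nearest to 0 or past it, 11 of the 32 lower and 9 of the 23 higher markers turned sign. That sample was picked for each marker by its effect, and the same count was not made over all genes. Nothing particular to these markers is therefore read from the counts. Csf1r, the receptor for the growth factor that macrophages need to survive, differed by −0.99, but in bGAL replicates 1, 2 and 3 and Nkx6.1 replicate 1 it held the same value of 0.84, a floor of the array at which no order can be read, and the difference was −0.59 without Nkx6.1 replicate 2. Tyrobp, a signalling adaptor of myeloid cells, differed by −0.60 with a floored probe as well, and by −0.40 without Nkx6.1 replicate 3. Of the 12 tested receptor and surface genes besides Adgre1, 8 were lower and 4 higher, and 6 had a floored probe. Fcgr3a and Itgb2, an Fc receptor and an integrin chain, differed by 0.28 and 0.85, but by −0.11 and 0.29 without bGAL replicate 1. Marco, a scavenger receptor with a floored probe, differed by 0.36, and by 0.12 without Nkx6.1 replicate 2. By symbol, Cd68, Itgam, Cx3cr1 and Fcer1g were not analysed here. Because levels cannot be read from centred values, the name macrophage for these cells rests on the known use of the genes.

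The lysosome and oxidase genes of phagocytes were close to 0 as a list, with a median of 0.04 and 3 of 7 lower. Lyz2, the lysozyme of macrophages, differed by −0.16, Ctsb and Gpnmb by −0.13 and −0.08, and Lgals3, Cyba and Hmox1 by 0.24, 0.41 and 0.45. Ctss, the protease that trims the invariant chain, differed by −0.93 (limma adjusted p = 0.49). In the class II list besides RT1-Da, 3 of 5 were lower, with a median of −0.73.

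Among the genes found on leukocytes in general, 6 of 9 besides Cd53 were lower and 3 higher, with a median of −0.19. Cd37, another tetraspanin of leukocytes, had a difference of −2.86 beside the −2.78 of Cd53, but it was floored at 1.93 in several samples and stood at −4.95 in Nkx6.1 replicate 5. All arrays of set 1 stood at 1.27 or above in Cd37 and all arrays of set 2 at −1.27 or below. Array set thus split its values completely, and the virus groups did not. Laptm5, a lysosomal membrane protein, differed by −1.23, and by −0.53 without Nkx6.1 replicate 1, and Arhgdib by −0.77, or −0.30 without Nkx6.1 replicate 3. Cd52, Vav1 and Cd48 were on the other side with 0.95, 0.73 and 0.62. Cd52 and Vav1, each with a floored probe, differed by 0.29 and −0.34 without bGAL replicate 1, and Cd48 by 0.53 without Nkx6.1 replicate 5. All 5 Nkx6.1 samples of Cd48, a surface ligand of lymphocyte receptors, lay above all controls (−0.34 ± 0.26 and 0.28 ± 0.24, SD, n = 5, limma adjusted p = 0.38), as did those of 2.02% of all genes.

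Lymphocyte and other leukocyte lists were mixed in direction. For T and NK cells 4 of 10 were lower with a median of 0.34. Cd3g, Lck and Prf1 were lowest there (−0.95, −0.81 and −0.28) and Nkg7, Cd3d and Cd5 highest (1.38, 1.06 and 0.63). Lck was 0.19 without Nkx6.1 replicate 2, Prf1, with a floored probe, −0.05 without Nkx6.1 replicate 3, and Nkg7 and Cd5 0.67 and 0.35 without bGAL replicate 1. Cd3g and Cd3d, subunits of the same T cell receptor complex, had opposite signs, both led by Nkx6.1 replicate 1, without which they differed by 0.02 and 0.31. Of the B cell markers Cd79b differed by −0.47, Cd22 by 0.07 and Ms4a1 by 0.16, and of the dendritic cell markers Cd83 differed by 0.06 and Xcr1 by 0.45. Without Nkx6.1 replicate 2, Cd79b differed by 0.03, Cd83 by −0.12 and Xcr1 by 0.13, the last 2 with a floored probe, and Ms4a1 differed by −0.18 without bGAL replicate 4. All 6 neutrophil and mast cell markers were lower, with a median of −0.46, 4 of them with a floored probe. Csf3r led them with −1.43, which was −0.16 without bGAL replicate 2.

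Markers of other cell types in the same samples are given as measured. Of the 7 stellate and fibroblast genes tested 6 were lower, with a median of −0.57 and a range of sample medians from −0.10 to 0.35 in controls and from −0.27 to 0.08 in Nkx6.1 samples. A floored probe was present in 5 of these 7. The control sample bGAL replicate 3 led Dcn and Lum, and without it their differences went from −6.11 to −3.02 and from −0.57 to −0.28. Of the 6 acinar genes 5 were higher, with a median of 0.68, and the 3 endothelial genes had a median of −0.02. A floored probe was present in 3 of the acinar and all 3 endothelial genes. Interferon-induced genes, which macrophages and islet cells can both express, went the other way from RT1-Da, with 7 of 9 higher and a median of 1.33. Psmb9, a subunit of the immunoproteasome, differed by 1.66 (limma adjusted p = 0.098). None of these passed, and their part in the differences of the 4 genes was not tested.

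Genes with the most similar pattern were sought among the 9617 genes with 10 values, by Pearson's r over the 10 samples, as a description. Closest to the mean of the 4 genes were Lrrn3 (r = 0.96), Ap3b1 (0.94), Klhdc8b (0.93), Fads1 (0.93), Nsmaf (0.92), Hhex (0.91), Itih3 (0.91), Reps1, Mettl25 and Or51ab3 (0.90, 0.90 and 0.89). No gene of the leukocyte lists was among these 10, but only 53 of the 9617 genes searched were other leukocyte markers, so nothing is read from that. The mean was taken without scaling, so Cd53, with the largest spread of the 4, weighs most in it. RT1-Da was most like Fxyd6 (r = 0.90), then C1qb (0.90), Yju2b (0.90), Shmt1 (0.89) and Adora2a (0.88). C1qb was most like Fxyd6 (r = 0.97), Ptpra (0.95), Nudt22 (0.93), Yju2b (0.92) and Snrpn (0.92). Fxyd6 and Yju2b thus stood in both lists. By deviations from the group means, r with RT1-Da was 0.80 for Fxyd6, 0.86 for Yju2b, 0.82 for Shmt1 and 0.83 for Adora2a, beside 0.81 for C1qb. With C1qb it was 0.95 for Fxyd6 and 0.86 to 0.92 for the others of its list.

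For Adgre1 the closest were Snap25 (r = 0.96), Rcan2, Serpinb9b, Ptprh and Crp (0.93 each). None of them is a leukocyte marker of the lists used here, and nothing is read from that either. These genes had differences between −8.25 and −4.05. For Cd53 they were Kat14 (r = 0.96), Schip1, Pkp4, Fbh1 and Fkbp14 (0.95 each). The mean of the other 3 genes had r = 0.53 with RT1-Da, 0.48 with C1qb, 0.43 with Adgre1 and 0.16 with Cd53 over the 10 samples, and these values hold the shared group difference by which the genes were chosen.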

How the data were processed

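RNA of 10 islet samples (500 ng each) was hybridised in Cy5 against one Cy3-labelled rat reference RNA, with no dye swap, per the labels. The authors' deposited table holds log2 ratios, and for their correction, normalisation and filtering the method was not given in the sources used here. All 17744 probes with 10 values had a median of 0 (tolerance 0.001), and array medians were −0.0028 to 0. In 7209 of these probes (40.6%) the same value stood in 3 or more samples (to 4 decimals) and was taken as a floor with a ratio of 1. The mean of array set 2 lay above it for 10 of 10 floored probes of glucose sensing and 11 of 12 of neuronal genes, and for 0 of 4 of DNA replication and 0 of 7 of mitosis genes, hence the likely direction. Across probes, Pearson's r between arrays was −0.13 to 0.48. Arrays with over 20% of probes without a value form array set 1.

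Of the probes, 15807 had 1 gene symbol, 0 had several and 11155 had none, and symbols were updated to the GRCr8 RefSeq table (12034 current, 3722 updated, 51 kept). Differences were fitted with limma 3.58.1 in R 4.3.3 (two-sided) on means over a gene's probes, where a gene had 3 or more values in each group, with Benjamini-Hochberg adjustment over all genes. Pairs of genes were tested by exact permutation within groups in Python 3.11.15. Both were tested on simulated data. Named were the 4 genes, the 3 lowest and 3 highest tested markers of each leukocyte list, up to 2 genes of other lists, and the genes most like the members. Ins1, Gcg, Nkx6-1, Lum, C1qc and Trem2 were named after their values were seen. The members and lists were chosen with earlier results of these data known.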

Additional observations from a re-analysis of the deposited data

Results flagged for a closer look

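None of the 4 genes had a sample outside the range that Dixon's criterion allows for groups of 5. Over the 4 genes and the 41 other leukocyte markers named by rule, 22 of 86 groups held a sample far from the others, and 13 of the 22 were genes with a floored probe. Chance flags about 1 in 20 in normal values, a share that does not hold where samples are tied at a floor. In Marco, Prf1, Cd22, Mpo and Tpsab1 the controls of array set 1 shared one value, so bGAL replicate 4 was flagged at any distance from it. The Dixon flags by sample were as follows. In Nkx6.1 replicate 1, C1qa stood at 2.67, Cd3d at 3.92, Cd3g at −4.71 and Laptm5 at −3.58. In Nkx6.1 replicate 2, Ciita stood at 1.13, Marco at 1.33, Lyz2 at 1.17, Lck at −4.62, Xcr1 at 1.69 and Mpo at −2.32. In bGAL replicate 4, the only control of array set 2, RT1-Bb stood at −0.66, Marco at 0.15, Cd37 at −1.53, Prf1 at −1.38, Cd22 at −0.0088, Mpo at −0.52 and Tpsab1 at −0.63. In bGAL replicate 5, Ciita stood at 0.92, Gpnmb at −0.70 and Cd83 at 1.42. Vav1 stood at −5.10 in bGAL replicate 1, and Cd163 at 15.5 in bGAL replicate 3.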

How the results depend on the processing

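All 4 genes stayed lower with the Nkx6.1 virus under each of the 22 alternatives run, but the same contrast had chosen them. Several alternatives could not change the difference. Each gene had 1 unfloored probe with 10 values, so the settings on probes, floors and missing values returned the same value. The replicate block did so too, because each number stood in both groups. Leaving out 1 sample gave −0.99 to −0.60 for Adgre1, −1.88 to −1.06 for C1qb, −3.43 to −1.66 for Cd53 and −1.96 to −1.33 for RT1-Da. Differences beyond 1 SD came within array sets, at −0.26 for Adgre1, −3.19 and −0.35 for C1qb and −2.91 for RT1-Da, and their cause was not tested. With array weights Cd53 differed by −1.05. The median of the other leukocyte markers, −0.13, was −0.00535 with the array set term, −0.25 with array weights, 0 and 0.065 within array sets 1 and 2, and −0.19 to 0.0042 with 1 sample left out, so it turned sign without Nkx6.1 replicate 3 and within array set 2. The r of deviations was 0.74 to 0.86 for C1qb with RT1-Da and 0.76 to 0.88 for RT1-Da with Cd74 when 1 sample was left out, and 0.87 and 0.85 with quantile normalisation, all with exact permutation p of 0.0375 or below before adjustment (settings chosen after seeing the data). Over all genes limma called 15, against 27 with quantile normalisation, 3 with the array set term, 578 with array weights and 2 to 36 with 1 sample left out. With the replicate number as a block it called 0 genes (811 at an unadjusted p under 0.05). Samples of the same number had correlations of deviations of 0.13 and 0.13 for numbers 1 and 4, each run within 1 array set, and −0.11 to −0.02 for the others. They were not treated as pairs, and the labels do not say whether a number marks a shared isolation.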
